A study of Drosophila melanogaster with 8 samples.

Results

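The cytosolic ribosomal protein genes of Drosophila melanogaster were taken as all genes whose name begins with RpL, RpS or RpLP and a digit, which leaves out the mitochondrial mRp genes. They numbered 92 of the 17655 genes listed. Of these, 78 were ubiquitous copies and 14 were paralogue copies, meaning second genes for, or relatives of, a ribosomal protein encoded elsewhere. All 92 had a mean of at least 1 FPKM over the 8 libraries and entered every test, which ran over 12267 genes. FPKM relates the sequenced fragments of a transcript to its length and to the size of the library. The values were rounded to whole numbers and were summed here over the transcripts of a gene.

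The flies were Canton S, a wild-type laboratory strain, and the material was the adult body with wings and legs taken off. Each sex was kept for 7 days on 1 of 4 diets: HFD+QG, which is high-fat food with added quercetin glucoside, HFD+EGCG, with added epigallocatechin gallate, the high-fat food alone (HFD) and a normal diet (ND). All flies then had 2 hours on standard food and were 15 days old when RNA was made. QG is a glucose-bound plant flavonol and EGCG a catechin of green tea. The study asked how these compounds act on gene expression in diet-driven obesity. There was 1 library for each diet and sex, so females on each diet have no replicate and neither have males. The labels do not say how many flies or cultures went into a library, and p-values therefore measure only the spread between libraries. Compound doses and the fat source are not given in the sources used here.

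Ribosomal proteins join ribosomal RNA in the small and large ribosomal subunits, and most are needed by every cell. In Drosophila many are encoded by a single gene whose loss of a copy gives the Minute phenotype of slow growth and thin bristles. A minority have a second copy, and several of these second copies are known from the germline: RpS5b from the ovary, RpL22-like and others from the testis. RpL24-like, RpL7-like and RpLP0-like are relatives of ribosomal proteins whose yeast homologues are assembly factors of the large subunit rather than parts of the finished ribosome. Ribosome production in the fly is governed by nutrient signalling through TOR and Myc.

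Summed FPKM lay between 885956 and 1000513 per library, and the number of reads is unknown. Females listed 9473 to 9844 genes above 0 and males 12758 to 12892. The sex labels matched the markers: 23 testis genes were listed at 0 in every female library, and Yp1, which encodes a yolk protein, had a listed 0 in every male library. Whether the female and male tables were normalized together is not given in the sources used here, so levels set across the sexes rest on the authors' scaling.

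RpS5b, a small subunit gene known from the ovary, had the widest range of the paralogues on the log2(FPKM + 1) scale. It was listed at 376 FPKM in HFD+QG females, 290 in HFD+EGCG females, 260 in HFD females and 611 in ND females. In males it was at 22 FPKM on HFD+QG, 18 on HFD+EGCG, 28 on HFD and 20 on ND. All 4 female values lay above all 4 male values, and ND stood highest among females. RpS5a, the ubiquitous partner, was at 1533, 1619, 1615 and 1166 FPKM in females on HFD+QG, HFD+EGCG, HFD and ND, and at 1234, 1404, 1295 and 1097 FPKM in males in the same order of diets. RpS5a was thus lowest on ND in both sexes.

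RpS5b made up 19.7% of the summed FPKM of RpS5a and RpS5b in HFD+QG females, 15.2% in HFD+EGCG females, 13.9% in HFD females and 34.4% in ND females. In males it made up 1.27% to 2.12%. The sum of the pair moved less than its split: it was 1909, 1909, 1875 and 1777 FPKM in females on HFD+QG, HFD+EGCG, HFD and ND. The high-fat minus ND change of that sum in females was 0.09 on the log2 scale, beside 0.45 for RpS5a and -1.0 for RpS5b.

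**Figure D1:**
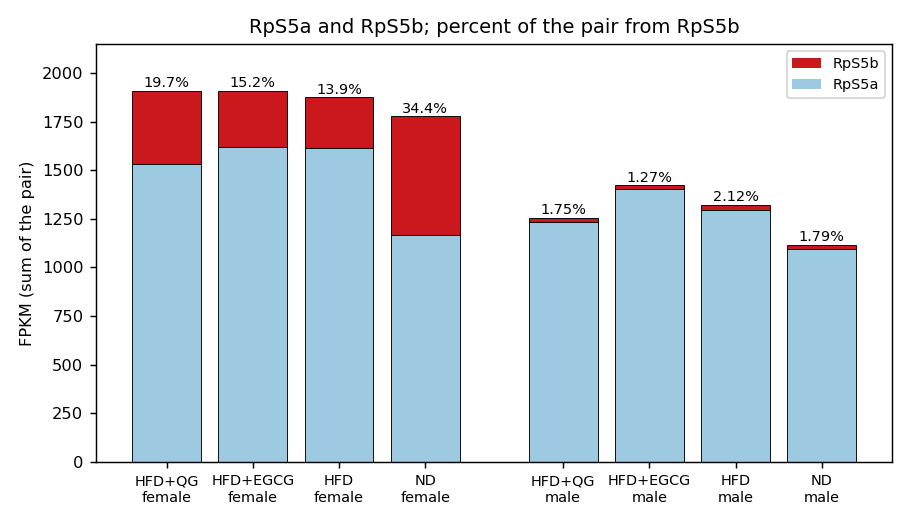
FPKM of RpS5a (blue) and RpS5b (red) stacked for each of the 8 libraries, females on the left and males on the right, with the percent of the pair that came from RpS5b above each bar. The RpS5b part is 13.9% to 19.7% in the 3 high-fat female libraries and 34.4% in the ND female library, and 1.27% to 2.12% in the males.

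Most ovary germline markers were also highest on ND in females, and their sum had the order of diets of RpS5b. ND was the highest female library for 18 of the 19 markers, beside 40.7% of all genes, and 11 had the full order of RpS5b (ND, HFD+QG, HFD+EGCG, HFD), beside 7.85%. The summed level of 19 ovary germline markers was 1528, 1455 and 1192 FPKM in females on HFD+QG, HFD+EGCG and HFD, against 2808 FPKM in ND females, and 133 to 174 FPKM in males. Both osk, the germ plasm organiser (212, 193 and 154 FPKM on the 3 high-fat diets and 407 on ND), and the germline helicase gene vas (44, 38 and 34 FPKM, and 81 on ND) were ordered like RpS5b across the 4 female libraries. The osk gene was listed at 0 in every male library. Of the 19 markers, 13 were called lower on the high-fat diets in females (limma, adjusted p under 0.05) and none was called higher, beside 26.5% of all genes called lower and 17.3% higher. The summed level of 20 egg shell and yolk genes was 13549, 8432 and 6690 FPKM on the high-fat diets, against 42593 FPKM on ND. In RNA of bodies without wings and legs, fewer cells of a type and less RNA per cell cannot be told apart. The part of these tissues in the RpS5b values was not tested.

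A group of 7 paralogues was present in male libraries and at or near 0 in females. RpL10Aa (partner RpL10Ab), RpL22-like (RpL22), RpL37b (RpL37a), RpS10a (RpS10b), RpS28-like and RpS28a (both RpS28b) were listed at 0 in all 4 female libraries, and RpS19b (RpS19a) was at 1 FPKM in each of them. In males on HFD+QG, HFD+EGCG, HFD and ND, RpS19b was at 37, 32, 44 and 33 FPKM, the highest of the group. RpS10a was at 19, 17, 23 and 18 FPKM in the same male libraries. The 7 were grouped by their low female values, so all 4 female values of each had to lie below all 4 male values. That placement is therefore no test. Over all genes tested it held for 39.7%, which includes genes that passed the filter only through males.

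The levels of RpL22-like, whose protein is known from the fly testis, were 16, 14, 21 and 17 FPKM in males on HFD+QG, HFD+EGCG, HFD and ND. RpL10Aa was at 16, 14, 21 and 21 FPKM and RpL37b at 17, 15, 22 and 17 FPKM in those libraries. These values were close to each other, and a step of 1 FPKM is a unit of rounding. RpS28-like was at 17, 10, 21 and 13 FPKM and RpS28a at 11, 8, 12 and 10 FPKM. The HFD+EGCG male library was the lowest for 7 of these 7 genes, and the HFD male library was the highest for 6 and tied with ND for RpL10Aa. Over all genes tested, the HFD+EGCG male library was the lowest of the 4 for 25.9% and the HFD male library the highest for 25.5%. The summed level of 23 testis markers ran the same way, at 4456, 3569, 5306 and 4999 FPKM in males on HFD+QG, HFD+EGCG, HFD and ND. Its part in these values was not tested.

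The 7 male copies were a small part of their pairs. Their partners were expressed in both sexes at 643 FPKM or more. The male copy made up at most 3.16% of a pair's summed FPKM (RpL10Aa in ND males) and at least 0.332% (RpS28a in HFD+EGCG males). RpL22 was at 1123, 1114, 1075 and 975 FPKM in females on HFD+QG, HFD+EGCG, HFD and ND and at 777, 879, 802 and 658 FPKM in males. RpS19a was at 3159, 3187, 3155 and 3030 FPKM in females and 2019, 2269, 2126 and 1736 FPKM in males on the same diets. RpL10Ab lay between 1068 and 1096 FPKM in females and between 643 and 860 FPKM in males. Each of these partners was lowest on ND in males. The other partners had the same placement in males: RpS10b was at 1154 to 1327 FPKM on the high-fat diets, against 1024 FPKM on ND, RpS28b at 2102 to 2400 FPKM, against 1772 FPKM on ND, and RpL37a at 2915 to 3326 FPKM, against 2387 FPKM on ND. In females RpS10b lay between 1560 and 1601 FPKM, RpS28b between 2409 and 2711 FPKM and RpL37a between 3663 and 4517 FPKM.

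**Figure D2:**
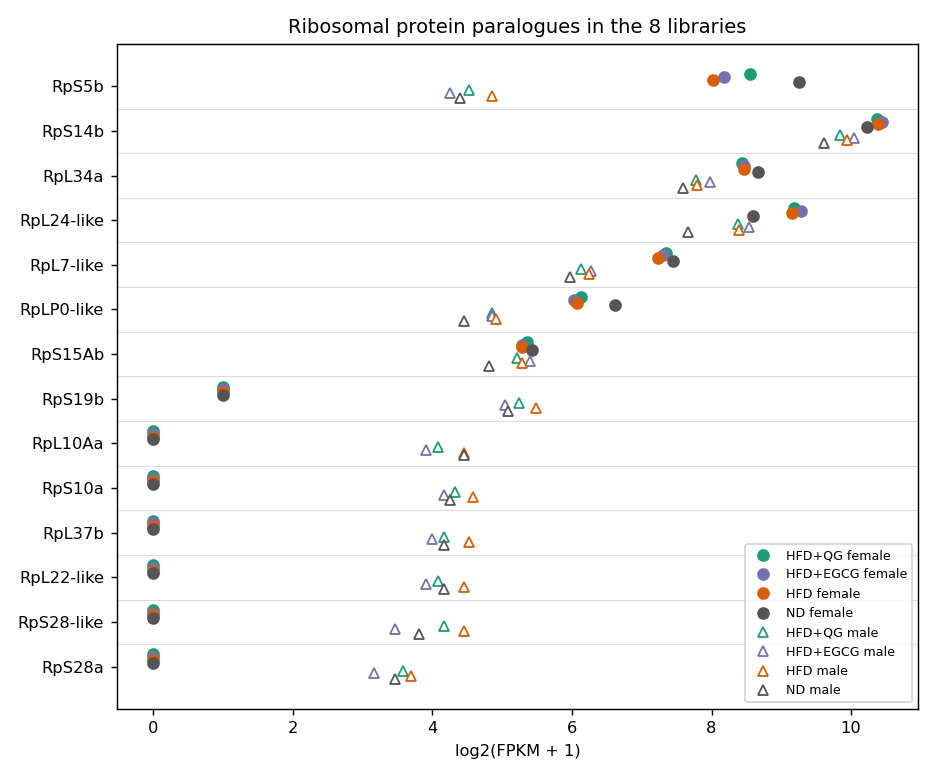
Level of each of the 14 paralogue copies as log2(FPKM + 1) in the 8 libraries, with filled circles for females, open triangles for males and colours for diets. The 7 copies in the lowest rows lie at 0 or 1 in females and the RpS5b circles lie far to the right of its triangles, while the RpS15Ab values of the sexes overlap.

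The 3 relatives of assembly factors were expressed in both sexes and higher in females. RpL24-like was at 581, 620, 571 and 387 FPKM in females on HFD+QG, HFD+EGCG, HFD and ND, and at 332, 369, 335 and 201 FPKM in males. RpL7-like was at 162, 157, 149 and 173 FPKM in females and 69, 76, 75 and 62 FPKM in males on the same diets. RpLP0-like was at 69, 64, 66 and 97 FPKM in females and 28, 28, 29 and 21 FPKM in males. In males ND was the lowest library for all 3. In females ND was the lowest for RpL24-like and the highest for RpL7-like and RpLP0-like.

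Their partners lie in the finished large subunit. RpL24 was at 1955, 1976, 1938 and 1890 FPKM in females on HFD+QG, HFD+EGCG, HFD and ND and at 1403, 1636, 1391 and 1159 FPKM in males. RpL7 lay between 2247 and 2436 FPKM in females and between 1181 and 1608 FPKM in males. RpLP0, the core of the ribosomal stalk, was at 1939, 1825, 1850 and 2016 FPKM in females and 1346, 1502, 1354 and 1098 FPKM in males. RpLP0 was thus highest on ND in females and lowest on ND in males.

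The last 3 paralogues, RpS14b, RpS15Ab and RpL34a, are further gene copies of their partners. RpS14b lies beside RpS14a on the X chromosome (7934898-7935792 and 7933742-7934677), and the copies are nearly identical, so the division of reads between them is uncertain. RpS14b was at 1324, 1391, 1338 and 1203 FPKM in females on HFD+QG, HFD+EGCG, HFD and ND and at 917, 1054, 980 and 781 FPKM in males, and held 68.0% to 70.2% of the pair in every library. RpS14a was the lowest of the 78 ubiquitous copies in each library, at 566 to 615 FPKM in females and 361 to 494 FPKM in males. RpS15Ab was at 40, 38, 38 and 42 FPKM in females and 36, 41, 38 and 27 FPKM in males, beside RpS15Aa at 1151 to 1278 FPKM in females and 711 to 955 FPKM in males. RpL34a was at 347, 354, 353 and 404 FPKM in females and 219, 252, 220 and 192 FPKM in males, beside RpL34b at 2320 to 2543 FPKM in females and 1286 to 1800 FPKM in males. RpS15Ab and RpL34a were highest on ND in females and lowest on ND in males.

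The 78 ubiquitous copies held 23.6%, 23.4%, 23.3% and 22.2% of all summed FPKM in females on HFD+QG, HFD+EGCG, HFD and ND, and 14.8%, 16.0%, 14.3% and 12.3% in males. Their median level was 2505, 2536.5, 2521 and 2386.5 FPKM in females and 1591.5, 1834, 1675 and 1363.5 FPKM in males. Every female median was above every male median. Genes of the small subunit (31) and of the large subunit (47) had close medians, for example 2510 and 2500 FPKM in HFD+QG females and 1271 and 1372 FPKM in ND males.

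The order of the ubiquitous genes was kept across libraries. Spearman's rho across the 78 genes was 0.99 to 0.998 between libraries of a sex (12 pairs) and 0.971 to 0.986 between the sexes (16 pairs), as a description, since genes of a library are not independent. RpL41, a very short protein of the large subunit, was the highest in every library, with a mean of 6469 FPKM over the 8. RpS29 (4809), RpL23 (4568) and RpL32 (3765 FPKM) were also among the highest. At the low end stood RpS14a (513), RpL38 (676.5), RpL10Ab (915), RpS9 (918) and RpL22 (925 FPKM). The place of RpS14a rests on the uncertain division of reads with RpS14b, and the pair summed to 1142 to 1981 FPKM per library.

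The ubiquitous copies held a larger share of FPKM in females than in males, which is a relative level and not an amount of RNA. All 78 ubiquitous copies were called higher in females over the 4 diets, with a median log2 difference of 0.60, in a limma model of sex and diet on log2(FPKM + 1) with Benjamini-Hochberg adjustment at 0.05. Over all genes tested, 33.9% were called higher and 42.0% lower in females, 75.9% in all. These include genes that passed the filter only through 1 sex. With at least 1 FPKM in some library of each sex, the shares were 39.6% higher and 27.3% lower. The median over all genes was -0.11, and after centring each library on its median it was 0.07, with 0.79 for the ubiquitous copies. In 77 of 78 every female library lay above every male library, beside 32.6% of all genes, and the exception was RpS5a. Of the 86 members listed above 0 in both sexes, 84 were called higher in females, and 80 to 84 when any 1 library was left out.

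RpS3A, a small subunit gene on chromosome 4, was among the ubiquitous copies with the largest differences. It was at 1265, 1249, 1241 and 1382 FPKM in females on HFD+QG, HFD+EGCG, HFD and ND and at 671, 797, 716 and 645 FPKM in males, a log2 difference of 0.86 (SE 0.09; limma, adjusted p 0.000957). RpS5a had the smallest difference of the 78, 0.23 (SE 0.07; limma, adjusted p 0.0265), and RpS28b the next, 0.30 (SE 0.07). On single diets the median of the ubiquitous copies was 0.63 on HFD+QG, 0.44 on HFD+EGCG, 0.55 on HFD and 0.77 on ND, beside medians over all genes of -0.09, -0.07, -0.07 and -0.19.

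**Figure D3:**
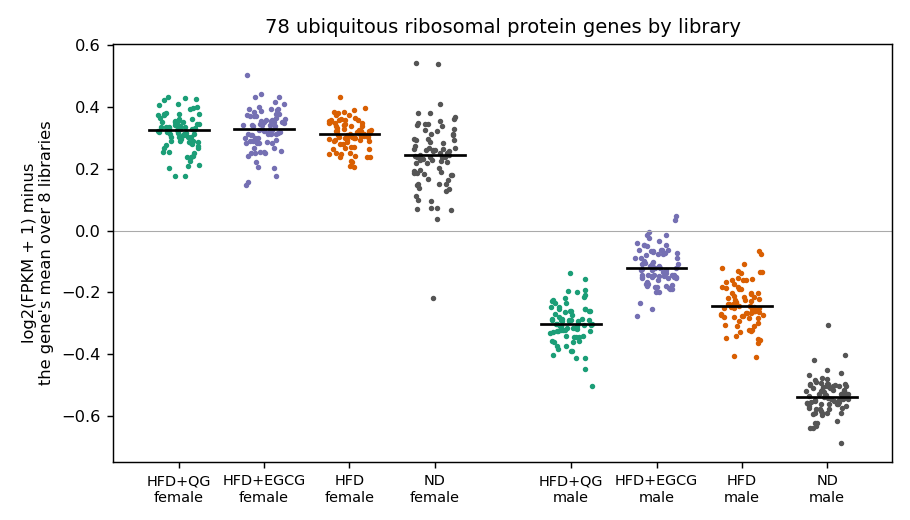
Each point is one of the 78 ubiquitous genes, as its log2(FPKM + 1) minus its own mean over the 8 libraries, with the median of the genes as a black line. Females lie above males, ND males lie lowest of all and HFD+EGCG males lie highest among males.

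Of the 8 paralogues listed above 0 in both sexes, 6 were called higher in females and RpS15Ab was not called, while RpS19b is set apart below. Over genes with at least 1 FPKM in some library of each sex, 39.6% were called higher and 27.3% lower. RpS5b differed by 4.00 (SE 0.28; limma, adjusted p 0.000208) and RpLP0-like by 1.44 (SE 0.20; limma, adjusted p 0.00256). RpL7-like differed by 1.18, RpL24-like by 0.82, RpL34a by 0.72 and RpS14b by 0.50. For each of the 6 every female library lay above every male library, beside 32.6% of all genes. RpS15Ab differed by 0.17 with a 95% interval of -0.21 to 0.54 (limma, adjusted p 0.334), and was called higher after centring (adjusted p 0.0401 to 0.345 over the alternatives). RpS19b, at 1 FPKM in every female library, differed by -4.22 on this scale. It was grouped by those low values, and equal rounded values add nothing to the spread that the test measures. Its call is therefore not given as a result. The other 6 male copies, at 0 in every female library, passed the filter on low values only through males, so they had to differ. Their calls are not given as a result, and with a filter that asks for 1 FPKM in each sex they were not tested.

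The ubiquitous copies were slightly higher on the high-fat diets than on ND, by a small amount in females and a larger one in males. Their median HFD minus ND difference was 0.07 in females (63 of 78 above 0) and 0.30 in males (78 of 78), beside medians over all genes of 0.00 and 0.04. With the sexes as replicates of a diet, no member and no gene was called for HFD against ND (0.0% of 12267; 1386 genes and 14 members at an unadjusted p under 0.05; limma, lowest adjusted p of a member 0.323). Any difference between female and male responses to a diet enters the error of that model. Among the 86 members listed above 0 in both sexes, the largest mean changes were those of RpL24-like (0.65), RpS5a (0.35) and RpS21 (0.31), and the lowest those of RpS5b (-0.38), RpLP0-like (-0.05) and RpS3A (-0.00). The median of the ubiquitous copies in that model was 0.18. It was 0.06 without the ND male library and 0.30 without the ND female library. Either fit rests on the ND library of the other sex alone, so its calls are not given.

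In males, all 78 ubiquitous copies were lower in the ND library than in each of the 3 high-fat libraries, beside 28.5% of all genes. The same held after rescaling each library to a common sum and after centring. Taking HFD+QG, HFD+EGCG and HFD together against ND, with their differences as error, 1 ND library and a spread shared by both sexes, 5 ubiquitous copies were called higher in males and none lower, beside 4.08% of all genes called higher and 2.23% lower (6.31% in all). The median change of the 78 was 0.32. RpS21 was at 2163, 2326 and 2358 FPKM in males on HFD+QG, HFD+EGCG and HFD, against 1721 FPKM on ND, a log2 change of 0.41 (SE 0.07; limma, adjusted p 0.043). RpS30, made as a fusion with a ubiquitin-like protein, was at 2288, 2559 and 2429 FPKM, against 1872 FPKM on ND, a change of 0.37 (SE 0.07; limma, adjusted p 0.0492). RpS29, RpLP2 and RpL39 each changed by 0.36 (limma, adjusted p 0.0339 to 0.0449).

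Among paralogues, 3 were called higher on the high-fat diets in males: RpL24-like by 0.78 (SE 0.08; limma, adjusted p 0.0138), RpS15Ab by 0.49 (SE 0.08; adjusted p 0.0382) and RpLP0-like by 0.41 (SE 0.05; adjusted p 0.021). These male calls were not firm. After rescaling or centring, only RpL24-like of the 92 members was called, beside 0.378% of genes higher and 0.772% lower after rescaling, and 0.416% and 0.799% after centring. Leaving out the HFD+EGCG male library gave 46 members in place of 8, beside 9.14% of all genes in place of 6.31%. Leaving out the HFD+QG male library gave 16, beside 4.57%, while 2 were called without any 1 of the HFD male or the 3 high-fat female libraries, beside 4.08% to 7.98%. In the high-fat male libraries 18 of 20 muscle markers had a change above 0, with a median of 0.35, beside 0.00 over all genes. They summed to 8285, 8877 and 9494 FPKM on HFD+QG, HFD+EGCG and HFD, against 6851 FPKM on ND. By limma 1 of the 20 was called higher, beside 4.08% of all genes. Accessory gland markers summed to 59522 to 74056 FPKM on the high-fat diets, against 76595 FPKM on ND. The part of these tissues was not tested.

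In females the ubiquitous copies moved less and not all one way. ND was below each high-fat library for 60 of 78, beside 25.6% of all genes, and above each for 7 (RpL13, RpL38, RpL41, RpLP0, RpS13, RpS2 and RpS3A), beside 40.7%. After centring these counts were 73 and 2 (RpS2 and RpS3A), beside 53.5% and 37.6% of all genes. Centring itself moved the median change over all genes in females from 0.00 to 0.10. Library medians of whole-number FPKM move only in rounding steps, so centring was a coarse check. The median change of the 78 on the high-fat diets was 0.08. By limma 3 were called higher and none lower, beside 17.3% of all genes called higher and 26.5% lower (43.9% in all), a split of 20.2% and 19.5% after centring. The 3 were RpS5a (0.45, SE 0.08, adjusted p 0.0123), RpL18 (0.23, SE 0.07, adjusted p 0.0493) and RpS29 (0.22, SE 0.06, adjusted p 0.0431). RpS2, which in Drosophila is also known as string of pearls for its effect on oogenesis, was at 1371, 1354 and 1314 FPKM in females on HFD+QG, HFD+EGCG and HFD, against 1586 FPKM on ND (-0.24, SE 0.08; limma, adjusted p 0.0625).

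Of the paralogues, 1 was called higher and 2 lower in females. RpL24-like rose by 0.61 (SE 0.08; limma, adjusted p 0.00529). RpLP0-like fell by 0.54 (SE 0.05; limma, adjusted p 0.0022). RpS5b fell by 1.00 (SE 0.30, 95% interval -1.78 to -0.22; limma, adjusted p 0.0495), a call that was lost without any 1 of the HFD female, HFD male, HFD+EGCG female, HFD+EGCG male or HFD+QG male libraries (adjusted p 0.0462 to 0.119 over the 7 fits that left out a library). Over those fits 3 to 19 members were called in place of 6, with 19 without the HFD+EGCG male library and 3 without the HFD female, HFD+EGCG female or HFD male library. The share of all genes called was 35.5% to 43.9% in the same fits. RpL24-like, RpLP0-like and RpS5a were called in all 7. Muscle markers were also higher in the high-fat female libraries, with 18 of 20 called higher, beside 17.3% of all genes, and summed levels of 6097, 6843 and 6749 FPKM, against 2945 FPKM on ND, beside the lower ovary and egg markers given above. Their part was not tested.

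RpL24-like and RpLP0-like each overlap another gene on the opposite strand. The library kit kept strand, but whether the counting used it is not given in the sources used here. Dtd, which overlaps RpL24-like (3R:11430740-11431582), was at 44, 48 and 44 FPKM in females on HFD+QG, HFD+EGCG and HFD, against 15 FPKM on ND, and at 17, 18 and 16 FPKM in males, against 8 FPKM on ND. Dtd was thus higher on the high-fat diets in both sexes (limma, adjusted p 0.000542 in females and 0.00775 in males), as RpL24-like was. Jra, the fly Jun gene, overlaps RpLP0-like (2R:10098518-10099590) and lay between 49 and 54 FPKM in females and between 43 and 46 FPKM in males, with no call by diet.

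The high-fat change differed between the sexes for 7 members, each with a lower value of the change in females than in males. The test was the female minus male difference of the high-fat minus ND change, and 12.8% of all genes were called higher and 20.2% lower by it (33.0% in all), or 15.8% and 12.7% after centring. RpLP0-like had a difference of -0.96 (SE 0.07; limma, adjusted p 0.0023), with -0.54 in females and 0.41 in males. RpS15Ab had -0.61 (SE 0.11; limma, adjusted p 0.0165) and RpS2 had -0.59 (SE 0.11; limma, adjusted p 0.017). These 3 were called under every alternative setting run and in each of 6 fits that left out a library.

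RpLP0 (-0.46), RpL34a (-0.46), RpL7-like (-0.39) and RpS13 (-0.34) completed the 7, with adjusted p of 0.0352 to 0.0458 by limma. Each of these 4 lost its call in at least 4 of the 6 fits without a library. In all, 3 members were called without the HFD male library or any 1 of the 3 high-fat female libraries, 14 without the HFD+QG male library and 19 without the HFD+EGCG male library, beside 25.2% to 32.5% of all genes. After centring, RpLP0-like, RpS15Ab and RpS2 were the 3 called. RpS5b had the largest difference, -1.15, but with an adjusted p of 0.101 by limma. The median difference of the ubiquitous copies was -0.25, beside -0.04 over all genes, and -0.12 beside 0.08 after centring.

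**Figure D4:**
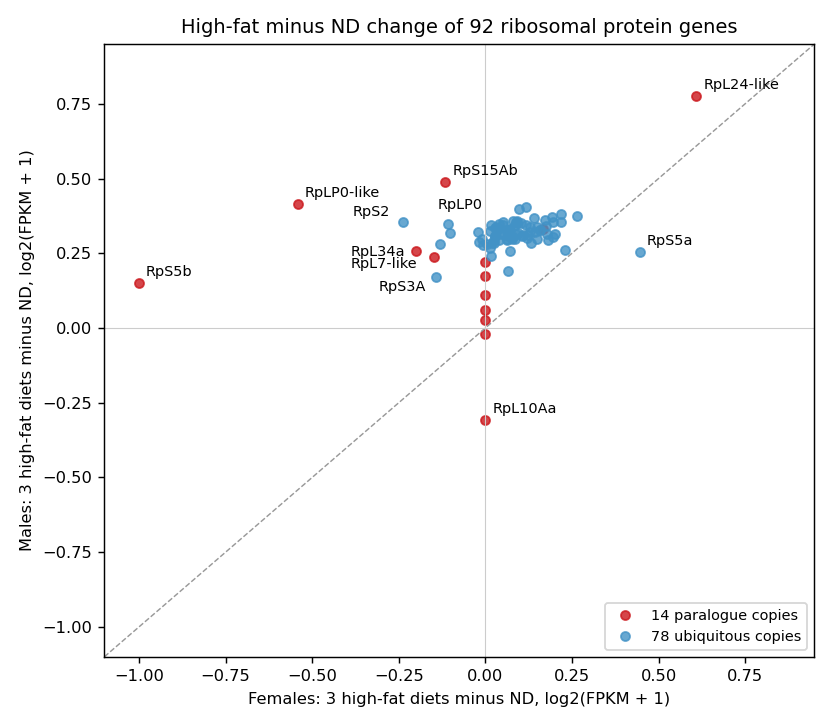
Change of each of the 92 genes on the 3 high-fat diets relative to ND, as differences of log2(FPKM + 1), in females (horizontal) and males (vertical), with the dashed line where both are equal. The ubiquitous genes (blue) cluster near 0.08 in females and 0.32 in males, RpL24-like lies high in both, and RpS5b and RpLP0-like lie to the left.

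Adding either compound to the high-fat diet left the ribosomal protein genes with small differences that did not pass the test. For HFD+QG against HFD, 0 of 92 members and 0 of all genes (0.0%) were called, with 114 genes and 0 members at an unadjusted p under 0.05 by limma. Among the 86 members listed above 0 in both sexes, RpS5b had the largest mean difference upward, 0.10 (SE 0.40), then RpL28 (0.05) and RpL9 (0.03). RpS19b (-0.12), RpS21 (-0.11) and RpL41 (-0.09) were the lowest. For HFD+EGCG against HFD, 0 of 92 members and 0 of all genes (0.0%) were called, with 117 genes and 0 members at an unadjusted p under 0.05. Of the same 86, RpL9 (0.14), RpL17 (0.14) and RpL34b (0.13) were highest and RpS5b (-0.23), RpS19b (-0.22) and RpL41 (-0.05) lowest. The 95% interval of the RpS5b difference for HFD+QG against HFD ran from -0.95 to 1.14.

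In males on HFD+EGCG the ubiquitous copies stood above the other diets. That library was the highest of the 4 for 77 of 78, beside 12.6% of all genes, with RpS21 the exception, and for 78 of 78 after rescaling or centring. The median HFD+EGCG minus HFD difference was 0.12 in males (77 of 78 above 0) and 0.02 in females (52 of 78), beside -0.02 and 0.00 over all genes. The median HFD+QG minus HFD difference was -0.06 in males and 0.01 in females, and the male value turned to 0.05 after rescaling and 0.03 after centring. These are single libraries with no replicate check. The 2 compounds share the HFD libraries as controls.

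Differences of at least 2-fold within a sex were rare among the members. RpS5b was the member past that fold for HFD against ND in females (260 and 611 FPKM, -1.23), where 4.96% of all genes were as much lower and 11.3% higher. RpS28-like was the member past it for HFD+EGCG against HFD in males (10 and 21 FPKM, -1.0), where 1.12% of genes were as much lower and 1.18% higher. No member was past it for HFD against ND in males (1.15% of genes higher and 2.13% lower), for HFD+QG against HFD in females (1.43% and 1.54%) or males (0.823% and 0.978%), or for HFD+EGCG against HFD in females (1.21% and 1.59%). At 1.5-fold, RpL24-like and RpS28-like were higher for HFD against ND in males, beside 3.95% of genes higher and 5.59% lower, and RpS28-like and RpS5b were lower for HFD+EGCG against HFD in males, beside 2.85% higher and 5.89% lower.

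Other genes of protein synthesis were also compared. Over all genes tested, 17.3% were called higher and 26.5% lower on the high-fat diets in females, and 4.08% and 2.23% in males. The male share called higher was 0.378% after rescaling and 0.416% after centring. The counts for the gene groups were taken on the values as deposited only, so how many male calls remain after scaling is not known. Of 28 genes of ribosome assembly, 24 were called lower on the high-fat diets in females and none higher (median -0.63), while in males 8 were called higher and none lower (median 0.43). These 28 genes were themselves higher in females (median female minus male difference 1.89), and 13 of 19 ovary germline markers (median -1.0) and 6 of 20 egg shell and yolk genes were called lower in the same female libraries. Their part in these values was not tested. Nop60B, a pseudouridine synthase of ribosomal RNA, was at 261, 241 and 237 FPKM in females on HFD+QG, HFD+EGCG and HFD, against 386 FPKM on ND, and at 30, 33 and 30 FPKM in males, against 17 FPKM on ND. Surf6, a nucleolar protein gene, was at 87, 79 and 76 FPKM in females, against 136 FPKM on ND, and at 15, 16 and 15 FPKM in males, against 8 FPKM on ND. The female minus male difference was called lower for 24 of the 28 (median -1.05), beside 20.2% of all genes, among them Surf6 (-1.61, SE 0.12; limma, adjusted p 0.0023).

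Of 72 mitochondrial ribosomal protein genes, 47 were called lower and 1 higher in females on the high-fat diets (median -0.32), and 26 higher and none lower in males (median 0.29). Among them mRpS10 was at 63, 59 and 62 FPKM in females on HFD+QG, HFD+EGCG and HFD, against 98 FPKM on ND. Of 38 translation factors tested, 15 were called lower and 2 higher in females (median -0.21), and 2 higher and none lower in males (median 0.16). The cap-binding factor eIF-4E was at 404, 391 and 368 FPKM in females on the high-fat diets, against 568 FPKM on ND (-0.55, SE 0.06; limma, adjusted p 0.00275), and Ef1alpha100E, an elongation factor isoform, was at 94, 116 and 105 FPKM, against 45 FPKM on ND (1.20, SE 0.13; adjusted p 0.00292). Medians over all genes were 0.00 in both sexes, and the male counts were taken without rescaling or centring. Of all genes, 17.3% were called higher and 26.5% lower in females, and 4.08% and 2.23% in males. Both groups were themselves higher in females. There 58 of the 72 (median 0.68) and 33 of the 38 (median 0.75) were called higher, and 0 and 1 lower. The part of ovary tissue, whose markers were lower in the same female libraries, was not tested. The ubiquitous cytosolic ribosomal proteins had medians of 0.08 in females and 0.32 in males, and the contrast between the gene groups was not tested.

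**Figure D5:**
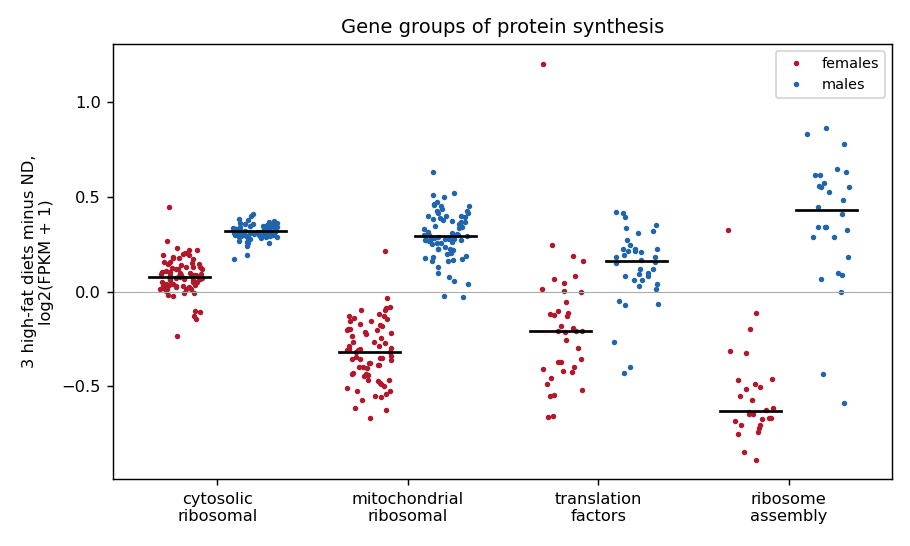
Change of each gene on the 3 high-fat diets relative to ND, as a difference of log2(FPKM + 1), for 4 groups of genes of protein synthesis, with females in red, males in blue and medians as black lines. In females the medians are 0.08, -0.32, -0.21 and -0.63 from left to right, and in males 0.32, 0.29, 0.16 and 0.43.

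The 13 genes of TOR and Myc signalling had 3 called higher and 3 lower in females, beside the 17.3% and 26.5% of all genes. None was called in males. The 3 called lower in females were raptor (-0.61, SE 0.19), Akt1 (-0.26, SE 0.06) and S6k (-0.25, SE 0.06), with adjusted p of 0.0246 to 0.0498 by limma. Thor, the fly 4E-BP that holds back cap-dependent translation, was at 628, 723 and 717 FPKM in females on HFD+QG, HFD+EGCG and HFD, against 232 FPKM on ND (1.56, SE 0.10; limma, adjusted p 0.000699), and at 580, 541 and 549 FPKM in males, against 708 FPKM on ND. Xrp1, a transcription factor of the response to ribosomal protein loss, was at 213, 223 and 245 FPKM in females, against 119 FPKM on ND (0.92, SE 0.08; limma, adjusted p 0.00193), and at 277, 284 and 291 FPKM in males, against 378 FPKM on ND. The female minus male difference was called for both genes (1.91 and 1.34; limma, adjusted p 0.00199 and 0.00301). The ribosome components named otherwise, sta (RpSA) and Rack1, were called by diet in neither sex. The female minus male difference of the change was called for sta (-0.39, SE 0.11; limma, adjusted p 0.0495) and not for Rack1 (-0.28, SE 0.10; adjusted p 0.0845).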

How the data were processed

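RNA-seq of 8 libraries (4 diets in each of 2 sexes) was used. Per the labels' protocols, the RNA was total RNA prepared with Isogen, and the SureSelect library kit keeps strand. The submitters' processing notes name CASAVA 1.8.2, TopHat2 2.1.1 and Cuffdiff 2.2.1. Genome build and scaling between libraries are not given in the sources used here. The deposited values are FPKM for each transcript, rounded by the authors to whole numbers and treated here as a score, so depth is unknown and no counting interval can be given. A listed 0 is under 0.5 FPKM or a failed estimate.

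FPKM were summed per FlyBase gene. limma 3.58.1 (R 4.3.3) was fitted to log2(FPKM + 1), which understates changes of low genes, for 12267 genes with a mean of at least 1, with a trended prior and Benjamini-Hochberg adjustment at 0.05. One model had sex and diet (3 residual degrees of freedom). The other had 4 groups, ND or high fat in each sex (4 residual degrees of freedom), where the single ND library of a sex is taken to vary as the rest do. Differences within a sex have no test. Members, lists and the rule for named genes (all paralogues with partners, the 5 highest and lowest levels, the largest changes) were chosen with earlier results of these data known. Some genes that the rule takes are not reported here. Coordinates are as the tables give them, and 86 of the 92 genes have the same start and end in BDGP6.54.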

Additional observations from a re-analysis of the deposited data

Results flagged for a closer look

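Change on the 3 high-fat diets relative to ND differed between females and males, by the limma test of that difference, for 7 ribosomal protein genes. The female minus male difference on the log2(FPKM + 1) scale was -0.96 for RpLP0-like, -0.61 for RpS15Ab, -0.59 for RpS2, -0.46 for RpL34a, -0.46 for RpLP0, -0.39 for RpL7-like and -0.34 for RpS13. In females the 3 high-fat libraries lay below ND for all 7. After centring each library on its median, that no longer held for RpLP0, RpL7-like, RpS13 and RpS15Ab. Of the 7 changes tested within females, that of RpLP0-like was the only one called. In males the 3 high-fat libraries lay above ND for all 7. The male changes of RpLP0-like and RpS15Ab were called as deposited, and neither was called after rescaling or centring. The single ND library of each sex enters every one of these values, and 33.0% of all genes were called by the same test.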

How the results depend on the processing

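No called change of a named member reversed its direction under the settings run. Medians near 0 did: for HFD+QG against HFD that of the ubiquitous copies was -0.06 in males and -0.03 over both sexes, against 0.048 and 0.03 after rescaling and 0.025 and 0.01 after centring. Without the HFD male library the median over both sexes was 0.0041, and for HFD+EGCG against HFD the median of 0.07 was -0.04 without the HFD+EGCG male library. The medians over all genes for females against males, for the sex difference of the high-fat change and for both compounds also changed sign after centring. For females against males, 84 of the 86 members above 0 in both sexes were called higher. That count was 82 to 85 under the alternative settings run on all 8 libraries. The 6 members at 0 in every female library had to differ and are left out. The labels carry no replicate numbers, and the libraries of the sexes were matched by diet, which served as the block. With no replicate block 83 of those 86 members were called higher. For the 3 high-fat diets against ND in males, 8 members were called, against 1 after rescaling, 1 after centring and 13 with a filter of at least 1 FPKM in each sex. For the sex difference of that change, 7 were called and 3 after centring. Leaving out 1 library gave 3 to 19 in females, 2 to 46 in males and 3 to 19 for the difference. For females against males it gave 80 to 84 of the same 86 members called higher. For HFD against ND and each compound against HFD, such fits can leave a diet with 1 library, so no counts are given. RpS5b in females lost its call with the highest transcript, without a trend and with no filter (adjusted p 0.0188 to 0.0618 over 8 settings).

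Members past 2-fold, with the highest transcript in place of the sum, numbered 2 for HFD against ND in females, 1 each for HFD+QG and HFD+EGCG against HFD in females, and 2 for HFD+EGCG against HFD in males. At 2-fold for HFD+EGCG against HFD in males they numbered 0, in place of 1, with a pseudocount of 5, after rescaling, after centring and with a mean of at least 10. At 1.5-fold, as deposited, they numbered 2 for HFD against ND in males and 2 for HFD+EGCG against HFD in males. The median female minus male difference of the ubiquitous copies was 0.83 on HFD+QG after centring, 0.55 and 0.64 on HFD+EGCG after rescaling and centring, and 0.71 and 0.83 on HFD. The cause of these shifts was not tested. Depth is unknown, and the copies at 8 to 44 FPKM are limited by rounding. Centring is too, since medians of whole-number values move only in rounding steps. The rescaled and centred counts of genes whose libraries do not overlap were chosen after seeing the data.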

Other observations

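The 92 genes had 231 transcripts. Of the 68 genes with several, the transcript with the most FPKM was the same in females and males for 68, and in females it held a median of 98.3% of its gene. RpS5b in females came almost wholly from 1 transcript, at 367, 285 and 254 FPKM on HFD+QG, HFD+EGCG and HFD, against 605 FPKM on ND, and its other transcript was at 9, 5 and 6 FPKM, against 6 FPKM on ND. Of the 14 paralogues 7 lie on 3R, 4 on 2R, 2 on 2L and 1 on X, and 13 of the 78 ubiquitous copies lie on X. RpS10a lies within tau on the opposite strand. The tau gene was at 7 to 17 FPKM in females, where RpS10a was listed at 0. In males tau was at 30 to 42 FPKM, where RpS10a was at 17 to 23 FPKM. Whether reads of tau enter the RpS10a values was not tested.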
